A study of Mus musculus with 16 samples.

Results

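The genes described here are 8 members of the NRF2 antioxidant response, measured in the liver of conventional mice that were inoculated with vehicle, lean-mouse or obese-mouse gut microbiota. They are Nfe2l2, Keap1, Nqo1, Gclc, Gclm, Hmox1, Srxn1 and Txnrd1. They were chosen by name, as every probe that the array design assigns to these symbols, and all 8 were among the 20404 genes tested. Liver RNA was hybridized to Agilent mouse arrays, 1 per mouse. There were 6 Conv + PBS mice, 5 Conv + LM mice and 5 Conv + OM(HFD) mice. All were male C57BL/6 mice on normal chow (NC), 6 weeks old at the start, kept on NC for 4 weeks and labelled as 10 weeks old, and none had received antibiotics. Conv + PBS mice were given reduced PBS, although their sample labels call them not transplanted, Conv + LM mice the caecal microbiota of NC-fed lean mice, and Conv + OM(HFD) mice that of mice made obese by a high-fat diet (HFD). The donor caecal content was not an independent sample for each recipient, and the mice were housed in groups, so that cage and treatment cannot be told apart where the mice of a group shared a cage.

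NRF2, the transcription factor encoded by Nfe2l2, is held in the cytoplasm and marked for degradation by KEAP1. When electrophiles or oxidants modify cysteines of KEAP1, NRF2 escapes degradation, enters the nucleus and, with a small MAF protein, binds antioxidant response elements near its target genes. Because much of this control acts on the protein, the transcript levels of Nfe2l2 and Keap1 do not measure NRF2 activity, which is usually read from targets such as Nqo1, Gclc, Gclm, Srxn1 and Txnrd1. In liver these targets supply glutathione and reducing power for detoxification, and Hmox1 also serves the breakdown of haem in Kupffer cells, the resident macrophages.

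The array carries 11 probes for these genes, of which 10 were well above background on all 16 arrays. The exception was the A_52_P602559 probe of Hmox1, which passed the background flag on none of them and was left out. The probe with the highest mean stood for its gene. On mm9, these lie at chr2:75513771-75513830 (Nfe2l2, minus strand), chr9:21035292-21035732 (Keap1, minus), chr8:109912440-109912499 (Nqo1, minus), chr9:77641296-77641355 (Gclc, plus), chr3:121967737-121967796 (Gclm, plus), chr8:77624406-77624466 (Hmox1, plus), chr2:151937009-151937068 (Srxn1, plus) and chr10:82360230-82360289 (Txnrd1, plus). Nfe2l2 has another probe at chr2:75529291-75529350, and Txnrd1 another at chr10:82338379-82338438. The Keap1 probe of 60 bases spans 441 bases of the genome, so that it crosses an exon junction. That probe and the other Txnrd1 probe, which did not follow the Txnrd1 probe that stood for the gene, are shown here 5′ to 3′ as the array design gives them.
Keap1 A_51_P438666: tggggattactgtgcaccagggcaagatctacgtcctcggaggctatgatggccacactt
Txnrd1 A_55_P2740574: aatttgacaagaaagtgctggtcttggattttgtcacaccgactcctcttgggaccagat

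The sequence that NRF2 is known to bind was looked for in the RefSeq promoters of GRCm38.p6, each reaching from 250 bases before a gene's start to 50 after it, of which 8 belong to 6 of the genes. Gclc and Hmox1 have none in the table used. The core TGACNNNGC, searched on both strands, was found in a promoter of Nfe2l2, Gclm, Txnrd1 and Srxn1, and in 12.4% of all 32851 promoters. The related TGAGNNNGC was found in 17.6% of all promoters and, among these genes, in that of Srxn1 alone, at 2 places. Nqo1 and Keap1 had neither string of letters in this window. The matches that lie before the start are printed with their surroundings on the strand of the gene, with the match in capitals. They are shown so that each can be read beside the element that NRF2 is known to bind. The TGACNNNGC match of Srxn1 lies after the start and is not printed. That of Txnrd1 lies before a start inside the gene, whose span on this build is chr10:82833951-82897724. A match is a description of the letters and not evidence of binding.
Nfe2l2, chr2:75704870-75704913, minus strand: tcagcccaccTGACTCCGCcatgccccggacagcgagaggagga
Gclm, chr3:122245398-122245456, plus strand: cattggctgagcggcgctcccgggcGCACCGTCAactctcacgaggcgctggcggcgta
Txnrd1, chr10:82859089-82859147, plus strand: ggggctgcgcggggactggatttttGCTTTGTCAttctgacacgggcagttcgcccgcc
Srxn1, chr2:152105454-152105512, plus strand: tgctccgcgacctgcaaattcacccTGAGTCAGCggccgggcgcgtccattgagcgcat
Srxn1, chr2:152105341-152105399, plus strand: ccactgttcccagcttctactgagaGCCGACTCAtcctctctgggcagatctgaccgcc

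All values are log2 of the background-subtracted spot intensity minus the 75th percentile of the array, so that 0 marks that percentile. That percentile ranged from 223.1 to 323.7 intensity units, and none of the 8 genes was related to it across mice at an adjusted p under 0.05. The arrays lay on 2 slides, each with mice of every group, and no gene differed between slides at an adjusted p under 0.05 in limma. The median r of an array with the others ranged from 0.982 (Conv + PBS mouse 1) to 0.989 over all genes. All 8 hepatocyte markers and all 10 Kupffer cell markers were well above background on all arrays. Of 8 neutrophil markers 4 were, and the mean of the 7 tested was highest in Conv + OM(HFD) mouse 25 (0.90) and Conv + PBS mouse 1 (0.68), against -1.80 or less in every other mouse. Mouse 25 also lay farthest above its group mean of all 16 mice in 4 of the 8 genes (Keap1, Hmox1, Srxn1 and Txnrd1) and farthest below it in 2 (Nfe2l2 and Gclc), beside 7.95% and 8.76% of all genes. Over all genes other mice held the top share in each direction, Conv + PBS mouse 4 with 11.6% and Conv + LM mouse 14 with 11.7%.

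Nfe2l2 was the only gene of the 8 with an unadjusted p under 0.05 in limma in any comparison. It was lower in the mice inoculated with HFD-microbiota than in those given vehicle. Its log2 level was 2.83 to 3.21 in Conv + PBS mice (median 2.97). In Conv + LM mice it was 2.97, 3.10, 3.09, 2.65 and 2.69, and in Conv + OM(HFD) mice 2.48, 2.88, 2.84, 2.77 and 2.87. Each of the 5 Conv + OM(HFD) values was under the vehicle median, but the groups overlapped. The means were 2.77 ± 0.17 (SD, n = 5) and 3.01 ± 0.16 (SD, n = 6), a log2 fold change of -0.24 (SE 0.11), or a level 15.3% lower. The p of Nfe2l2 was 0.0497 in limma and 0.0303 in the exact two-sided permutation test, before any correction for the number of genes and comparisons, and the adjusted p in limma was 1.0. Without mouse 25, the lowest, the log2 fold change was -0.17. The limma p was over 0.05 without mouse 25 or any 1 of 7 other mice (Conv + PBS mice 1, 2, 3 and 5, Conv + LM mouse 13, and Conv + OM(HFD) mice 28 and 29), and also with quantile normalization, without a filter on dim probes, with array weights and with the mean of probes. The log2 fold change was -0.40 on slide 1 and -0.06 on slide 2, and whether the slides differed was not tested. The other Nfe2l2 probe, on a different Ensembl transcript, gave a log2 fold change of 0.05 (SE 0.20, exact permutation p = 0.82), and the deviations of the 2 Nfe2l2 probes from their group means showed no relation that passed the test (r = 0.07, permutation p = 0.79, Spearman's rho = 0.04, permutation p = 0.899, n = 16).

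In the contrast of Conv + OM(HFD) vs. Conv + PBS mice, 1 of the 8 genes passed at this unadjusted p, where 3.27% of all genes tested did, and 1 of 8 was lower, where 1.74% of all genes were. In that of Conv + LM vs. Conv + PBS mice it was 0 of 8, with 3.95% of all genes. In that of Conv + OM(HFD) vs. Conv + LM mice it was 0 of 8, with 2.71% of all genes (1.56% higher and 1.15% lower). These counts lie near the background and are no result about the 8 genes. After adjustment over all genes in limma, 0 of 8 remained in each comparison, as for the whole array, where the share was 0 and the smallest adjusted p was 0.997. In no comparison were the groups of any of the 8 genes fully apart, as they were for 0.24%, 0.279% and 0.466% of all genes. The median log2 fold change of the 8 genes was -0.0013, -0.055 and -0.0051 in these 3 comparisons, beside -0.00038, -0.014 and 0.0087 over all genes. The first and second comparisons share the Conv + PBS mice, so that they are not independent.

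Keap1, the adaptor that presents NRF2 for degradation, had nearly the same mean in all groups. Its log2 level was 3.0 to 3.18 in Conv + PBS mice (with a median of 3.10), 3.11 to 3.26 with lean microbiota and 2.95 to 3.33 in Conv + OM(HFD) mice. The log2 fold change was 0.07 (95% confidence interval -0.11 to 0.24) for Conv + OM(HFD) and 0.07 (-0.10 to 0.24) for Conv + LM mice, each against Conv + PBS mice. The 5 Conv + LM mice lay above the Conv + PBS median, although the ranges overlapped.

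Gclc and Gclm encode the catalytic and the modifier subunit of glutamate-cysteine ligase, which starts glutathione synthesis. Gclc was 4.51 to 4.81 in Conv + PBS mice (with a median of 4.68), 4.45 to 4.88 with lean microbiota and 4.34 to 4.82 in Conv + OM(HFD) mice. Its means differed by at most 0.03 on the log2 scale, and the 95% confidence interval for Conv + OM(HFD) against Conv + PBS mice ran from -0.25 to 0.19. Gclm was 5.10 to 5.31 in Conv + PBS mice (median 5.20), with values of 5.0, 5.07, 5.20, 5.23 and 4.96 in Conv + LM and of 5.24, 5.35, 5.24, 5.32 and 4.99 in Conv + OM(HFD) mice. In 4 of 5 Conv + OM(HFD) mice Gclm lay above the Conv + LM median, and in 4 of 5 Conv + LM mice below the Conv + PBS median, with wide overlap. For Gclm, the log2 fold change was 0.14 (SE 0.09, exact permutation p = 0.111) in Conv + OM(HFD) vs. Conv + LM mice and -0.11 (SE 0.08, exact permutation p = 0.117) in Conv + LM vs. Conv + PBS mice. Without Conv + OM(HFD) mouse 30, the lowest of its group, the first of these was 0.20 with a limma p under 0.05.

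Srxn1 encodes sulfiredoxin, which restores over-oxidized peroxiredoxins, and Txnrd1 the cytosolic thioredoxin reductase. Srxn1 was 2.23 to 2.95 in Conv + PBS mice (median 2.59). It was 3.03, 2.60, 2.81, 2.46 and 2.48 in Conv + LM and 3.19, 2.48, 2.57, 2.84 and 2.40 in Conv + OM(HFD) mice. The ranges of all 3 groups overlapped, with mouse 25 on top. Against Conv + PBS mice, the log2 fold change of Srxn1 was 0.12 (SE 0.16, exact permutation p = 0.524) for Conv + OM(HFD) and 0.10 (SE 0.16, exact permutation p = 0.524) for Conv + LM mice, and without mouse 25 the first of these was -0.0086. Txnrd1 was 3.78 to 4.06 in Conv + PBS mice (median 3.95), 4.09, 3.95, 3.98, 3.91 and 3.98 in Conv + LM mice, and 4.11, 4.09, 3.69, 4.07 and 3.63 in Conv + OM(HFD) mice. The Conv + OM(HFD) mice fell into 3 high and 2 low values, mice 28 and 30 being lower than any other mouse. The means differed little, with a log2 fold change of -0.03 (SE 0.10, exact permutation p = 0.781) for Conv + OM(HFD) against Conv + PBS mice. The other Txnrd1 probe gave 0.09 (SE 0.13, exact permutation p = 0.671), and mice 28 and 30 had 2.91 and 2.92 there. Mouse 28 was the lowest of its group there, and both values were under the Conv + PBS median of 3.04, but they lay within the ranges of both other groups (2.33 to 3.09 and 2.74 to 3.02).

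Nqo1 encodes a quinone reductase and is a common readout of NRF2 activity. Its log2 level was -2.08 to -1.45 in Conv + PBS mice (median -1.84). It was -1.92, -1.46, -1.79, -1.97 and -2.37 in Conv + LM mice and -1.75, -1.88, -1.89, -2.20 and -1.99 in Conv + OM(HFD) mice. The highest and the lowest of these Nqo1 values were found in the groups without HFD-microbiota. Against Conv + PBS mice, the log2 fold change of Nqo1 was -0.13 (SE 0.15, exact permutation p = 0.333) for Conv + OM(HFD) and -0.09 (SE 0.15, exact permutation p = 0.623) for Conv + LM mice.

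Hmox1, which encodes haem oxygenase, varied most between mice. It was 0.95 to 2.56 in Conv + PBS mice (median 1.72), 0.72, 1.91, 1.34, 1.16 and 1.87 in Conv + LM mice and 2.74, 1.02, 1.53, 2.12 and 1.75 in Conv + OM(HFD) mice. The highest values were those of mouse 25 and of Conv + PBS mouse 1 (2.56). Hmox1 had a log2 fold change of 0.43 (95% confidence interval -0.29 to 1.15, exact permutation p = 0.286) in Conv + OM(HFD) vs. Conv + LM mice, the largest difference among the 8 genes, and of 0.16 (-0.53 to 0.85) in Conv + OM(HFD) vs. Conv + PBS mice. Without mouse 25 the first was 0.21 and the second -0.068, and without Conv + LM mouse 13 the first was 0.26. Leaving out each mouse in turn gave 0.21 to 0.64 for the first. On slide 1 the second was 0.66 and on slide 2 -0.43. The marker means of Kupffer cells and neutrophils lay the same way as Hmox1 in the first comparison. That of the Kupffer cell markers was 1.05 ± 0.56 (SD, n = 5) with HFD-microbiota and 0.70 ± 0.30 (SD, n = 5) with lean microbiota, and that of the neutrophil markers was -1.69 ± 1.54 and -2.59 ± 0.32, mouse 25 being the highest of the 10 mice in both. The bile duct (-2.40 and -2.23) and stellate cell means (-0.73 and -0.67) lay the other way. So did the endothelial (0.83 and 0.88) and red blood cell means (3.91 and 3.96). In Conv + PBS mice the Kupffer cell mean was 1.22 and the neutrophil mean -1.92. Thus in the second comparison the neutrophil mean lay the same way as Hmox1 and the Kupffer cell mean the other way. The part of these markers in the differences was not tested.

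**Figure D1:**
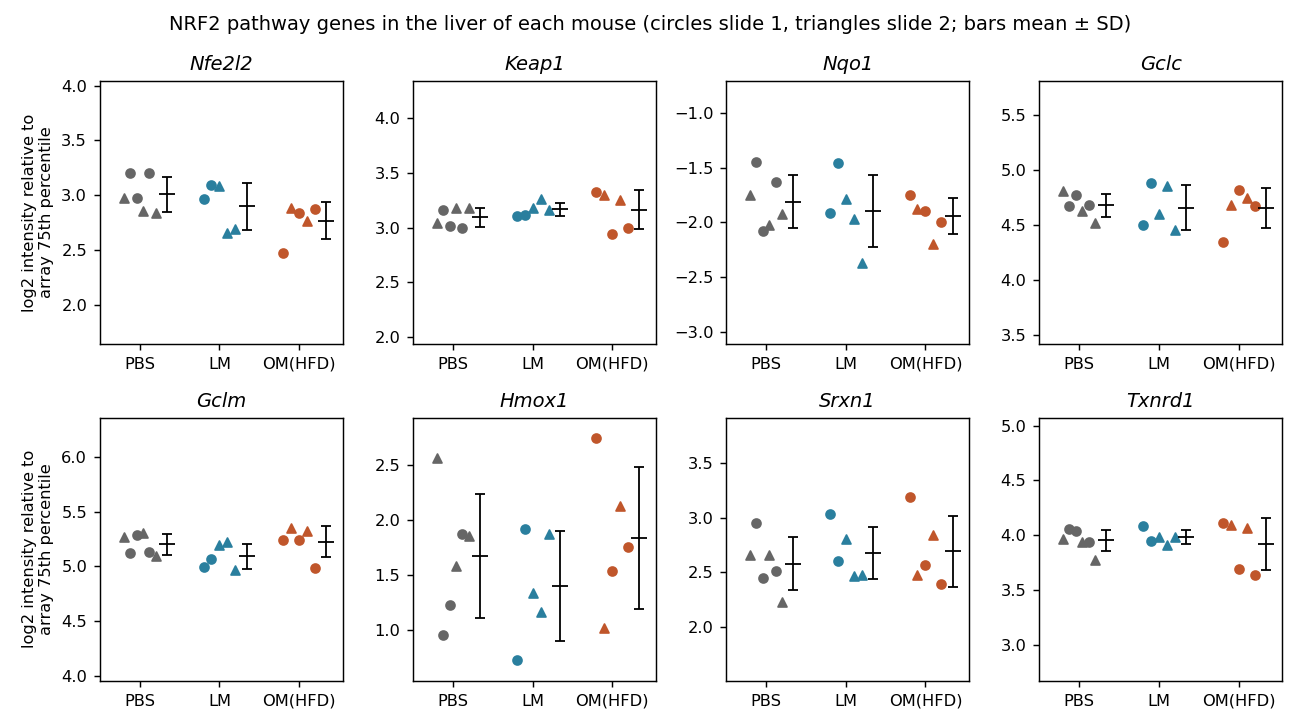
The log2 intensity relative to the 75th percentile of the array (vertical axis, the same span in every panel) is plotted for the 8 genes by group, with 1 point per mouse (6 Conv + PBS, 5 Conv + LM, 5 Conv + OM(HFD)), circles for slide 1, triangles for slide 2 and bars for the mean ± SD. The groups overlap in every panel, and Hmox1 spreads most, from 0.72 to 2.74.

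The spread between mice of a group set the size of difference that could be seen. The pooled SD within groups was 0.57 for Hmox1 on the log2 scale, larger than for 88.7% of all genes, and 0.27 for Srxn1 and 0.25 for Nqo1, close to the median gene (0.24). It was 0.18 for Nfe2l2, 0.16 for Gclc, 0.15 for Txnrd1 and 0.12 for both Keap1 and Gclm, each smaller than that of the median gene. In consequence, the 95% confidence intervals of Keap1 and Gclm in the 3 comparisons had bounds between -0.29 and 0.32, whereas those of Hmox1 reached from -0.96 to 1.15.

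**Figure D2:**
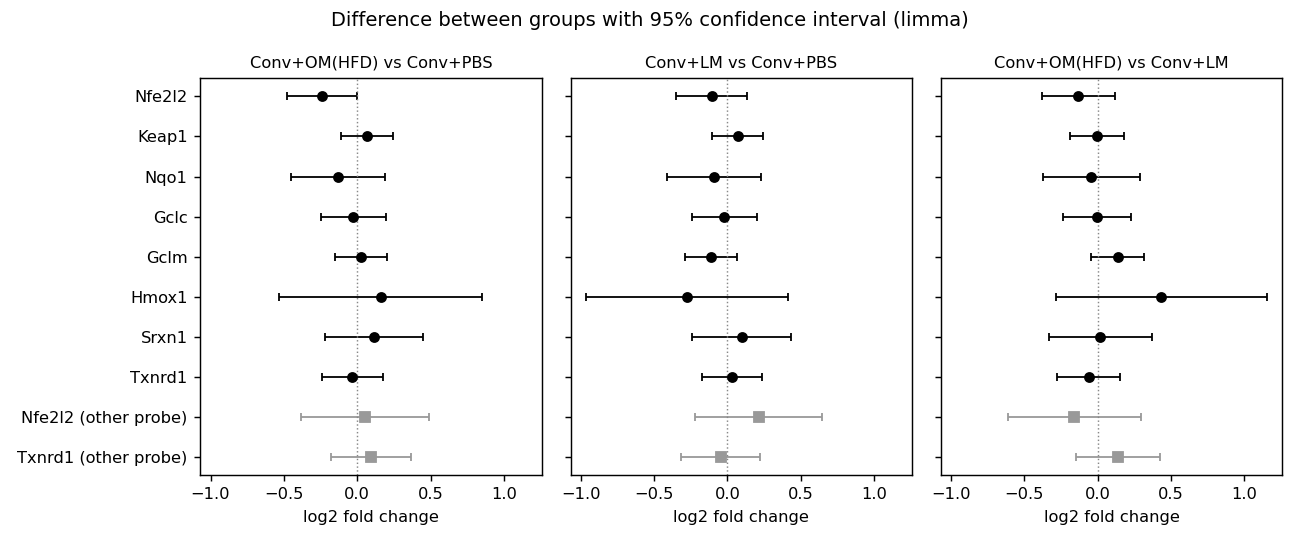
The log2 fold change (horizontal axis) of the 8 genes and of the other probe of Nfe2l2 and Txnrd1 (grey squares) is plotted for the 3 comparisons, with bars for the 95% confidence interval in limma. Only the interval of Nfe2l2 in Conv + OM(HFD) vs. Conv + PBS mice, from -0.48 to -0.00031, leaves out 0.

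Beyond the 8 genes, 90 genes written from general knowledge were examined, most of them of the pathway and 6 of them antioxidant enzymes outside it, and 85 could be tested. With HFD-microbiota against vehicle, 4 of the 85 (4.71%, beside 3.27% of all genes) passed at an unadjusted limma p under 0.05. These were Slc40a1, which encodes the iron exporter ferroportin and was higher (log2 fold change 0.33), and Gstt1 (-0.33), Gstt2 (-0.38) and Pgd (-0.39), which were lower. Gstt1 and Gstt2 encode glutathione S-transferases, and Pgd an NADPH-producing enzyme of the pentose phosphate pathway. With lean microbiota against vehicle, 4 of 85 (4.71%, beside 3.95%) had such a p, all lower. They were Nfe2l3 (-0.46), a relative of NRF2, Gstt2 (-0.51), and the NADPH-producing G6pdx (-0.44) and Me1 (-0.43). With HFD-microbiota against lean microbiota it was 3 of 85 (3.53%, beside 2.71%), with Nfe2l3 (0.30) and Gpx2 (0.28), a glutathione peroxidase, higher and Pgd (-0.36) lower. None of these genes had an adjusted p under 0.05. Gstt2 was 3.47 to 3.80 in Conv + PBS mice, 2.71 to 3.51 in Conv + LM mice and 2.96 to 3.49 in Conv + OM(HFD) mice, so that the ranges barely overlapped. The exact permutation test gave p = 0.00433 and p = 0.00866 for the difference of Gstt2 from Conv + PBS mice in these 2 groups, without correction, and both use the same Conv + PBS mice. The log2 fold change of Gstt2 was -0.58 on slide 1 and -0.11 on slide 2 for HFD-microbiota, and -0.26 and -0.66 for lean microbiota. The 11 thioredoxin and peroxiredoxin genes, the 16 other detoxifying targets and the 6 antioxidant enzymes outside the pathway held no gene at that p in any comparison.

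The study also allows the question whether the genes rise and fall together from mouse to mouse. After removal of the group means, Pearson's r over the 16 mice was at least 0.5 in 3 of the 28 pairs of genes (10.7%), beside 6.51% of all pairs of genes tested. An r of -0.5 or lower was found in 0 of 28 pairs, beside 5.13% of all pairs. The r was positive in 16 of 28 pairs, with a median of 0.05, beside 0.01 over all pairs of genes. Of the 28 pairs, 2 had an unadjusted permutation p under 0.05 and 0 an adjusted p under 0.05, also by Spearman's rho. All of these pairs come from the same 16 mice and arrays.

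**Figure D3:**
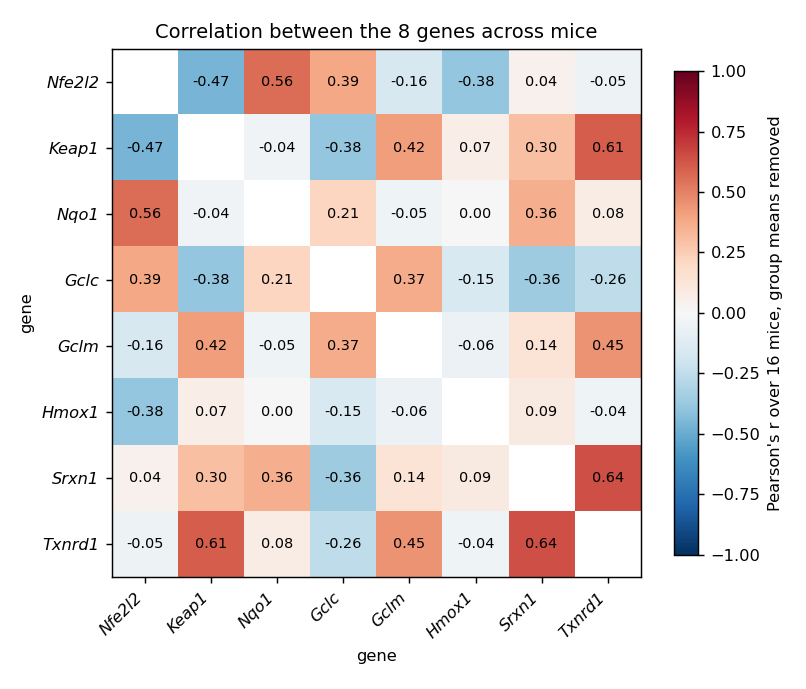
Pearson's r between the log2 values of each pair of the 8 genes (both axes) over 16 mice, with group means removed, is given by colour and number. The values range from -0.47 (Nfe2l2 and Keap1) to 0.64 (Srxn1 and Txnrd1).

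Srxn1 and Txnrd1 were the most closely related pair (r = 0.64, permutation p = 0.0215, adjusted p = 0.509). Spearman's rho for Srxn1 and Txnrd1 was 0.64 (permutation p = 0.0296, adjusted p = 0.536). The r of Srxn1 and Txnrd1 was 0.52 without Conv + OM(HFD) mouse 25 and Conv + PBS mouse 2, whose Srxn1 deviated most from the group means. It was 0.88 on slide 1 and 0.67 on slide 2, and this was the only pair with an r of at least 0.5 on both slides. Leaving out Conv + OM(HFD) mouse 26 raised it to 0.81 with an adjusted p of 0.0238 by permutation, which is the only setting that gave any pair an adjusted p under 0.05. The relation was not seen with the other Txnrd1 probe (r = -0.03, permutation p = 0.914, rho = 0.10, permutation p = 0.727), and that probe did not follow the Txnrd1 probe that stood for the gene (r = 0.11, permutation p = 0.672, rho = 0.10, permutation p = 0.747). With the mean of both Txnrd1 probes, r with Srxn1 was 0.33.

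Nfe2l2 and Nqo1 had an r of 0.56 (permutation p = 0.0478, adjusted p = 0.509) and a Spearman's rho of 0.58 (permutation p = 0.0383, adjusted p = 0.536). Without Conv + OM(HFD) mouse 25 and Conv + LM mouse 16, the r of Nfe2l2 and Nqo1 was 0.87, and it was 0.28 on slide 1 and 0.70 on slide 2. It was 0.45 with the slide as a block, and the other Nfe2l2 probe had an r of 0.21 with Nqo1 (permutation p = 0.452, rho = 0.27, permutation p = 0.338). That probe had its highest r with Txnrd1, 0.62 (permutation p = 0.00637, adjusted p = 0.102, rho = 0.68, permutation p = 0.0053). With Srxn1 it had 0.59 (permutation p = 0.0216, adjusted p = 0.173, rho = 0.52, permutation p = 0.0536). The Nfe2l2 probe that stood for the gene had -0.05 with Txnrd1 and 0.04 with Srxn1. Keap1 and Txnrd1 had an r of 0.61 (permutation p = 0.129, adjusted p = 0.509; rho = 0.52, permutation p = 0.139). That relation rested on Conv + OM(HFD) mice 28 and 30, which were low in both genes, since without them r was -0.39, and it was 0.90 on slide 1 and -0.62 on slide 2.

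Other pairs with a known link passed no test. Gclc and Gclm, the subunits of the same enzyme, had an r of 0.37 (permutation p = 0.217, adjusted p = 0.509; rho = 0.39, permutation p = 0.209), and 0.38 without Conv + OM(HFD) mouse 25 and Conv + LM mouse 17. Nfe2l2 and Keap1 had the lowest r, -0.47 (permutation p = 0.0573, adjusted p = 0.509; rho = -0.43, permutation p = 0.0868), and -0.22 without mouse 25 and Conv + LM mouse 16. With the other Nfe2l2 probe, r with Keap1 was 0.32 (permutation p = 0.236, rho = 0.21, permutation p = 0.431), and with the mean of probes it was 0.07. Hmox1 had an r between -0.38 (with Nfe2l2) and 0.09 (with Srxn1) with the other 7 genes, and its r with Nqo1 was 0.00097 (permutation p = 0.997; rho = 0.09, permutation p = 0.756).

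Each gene was then set against the mean of 5 groups of other genes, 40 relations in all, again with group means removed. Of these, 9 had an unadjusted permutation p under 0.05 and 1 an adjusted p under 0.05, that of Hmox1 with 10 Kupffer cell markers. In bulk liver, fewer Kupffer cells and less RNA per cell cannot be told apart. The mean of the Kupffer cell markers was 0.56 to 3.0 in Conv + PBS, 0.30 to 1.04 in Conv + LM and 0.49 to 1.88 in Conv + OM(HFD) mice. Hmox1 followed it with an r of 0.77 (permutation p = 0.00061, adjusted p = 0.0244). Spearman's rho was 0.73 (permutation p = 0.00365), and its adjusted p was 0.146. Without Conv + PBS mouse 1 and Conv + OM(HFD) mouse 25, which had the highest marker means, r was 0.64, and it was 0.85 on slide 1 and 0.76 on slide 2. Leaving out each mouse in turn gave r from 0.73 to 0.84, but the adjusted p passed 0.05 without Conv + PBS mouse 1, 3 or 5, Conv + LM mouse 13 or Conv + OM(HFD) mouse 25, reaching 0.114 without the last. Among the single markers, r of Hmox1 was 0.86 with Marco, a scavenger receptor (permutation p = 4e-05, rho = 0.87, permutation p = 7e-05), 0.80 with C1qb, a complement subunit (permutation p = 0.00032, rho = 0.84, permutation p = 0.00033), and 0.76 with Clec4f, a Kupffer cell lectin (permutation p = 0.00156, rho = 0.75, permutation p = 0.00302). It was lowest with Timd4, a receptor for dying cells (r = 0.55, permutation p = 0.0565, rho = 0.48, permutation p = 0.0675). For 9 of these 10 markers the p adjusted over the 10 was under 0.05, but they are measured in the same mice and share their source, so that they are not separate pieces of evidence. None of the other 7 genes had an r of 0.5 or more with the Kupffer cell markers, the highest being that of Srxn1 (r = 0.30, permutation p = 0.272, rho = 0.38, permutation p = 0.189).

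Hmox1 also had an r of 0.71 with the neutrophil markers (permutation p = 0.00678, adjusted p = 0.0678; rho = 0.47, permutation p = 0.0867), but 0.28 without mouse 25 and Conv + PBS mouse 1, so that this relation rested on those mice. With the heat shock genes, Hmox1 had an r of -0.10 (permutation p = 0.739, rho = 0.11, permutation p = 0.703), but 0.80 without the same 2 mice. Srxn1 and Nqo1 had a negative r with genes that fasting induces through PPARα, which did not pass after adjustment. For Srxn1, r with the fasting genes was -0.72 (permutation p = 0.00398, adjusted p = 0.0678; rho = -0.56, permutation p = 0.0361), and -0.52 without Conv + PBS mouse 2 and Conv + OM(HFD) mouse 25. For Nqo1, r with the fasting genes was -0.67 (permutation p = 0.0108, adjusted p = 0.0868; rho = -0.63, permutation p = 0.0179), and -0.55 without these 2 mice. The mean of the fasting genes ranged from 2.89 to 5.10 in Conv + PBS mice, 2.98 to 5.16 in Conv + LM mice and 3.27 to 5.15 in Conv + OM(HFD) mice. Against a clock measure, the mean of 3 clock genes of the Arntl phase minus that of 6 of the Dbp phase, r was -0.71 for Srxn1 (permutation p = 0.0057, adjusted p = 0.0678; rho = -0.58, permutation p = 0.0326), and -0.65 without Conv + OM(HFD) mouse 30 and Conv + LM mouse 17. It was -0.59 for Txnrd1 (permutation p = 0.0265, adjusted p = 0.177; rho = -0.55, permutation p = 0.0434) and -0.57 for Nqo1 (permutation p = 0.0319, adjusted p = 0.182; rho = -0.54, permutation p = 0.0486), and without these 2 mice -0.48 and -0.46. The remaining relations at an unadjusted p under 0.05 were those of Nqo1 (r = -0.54, permutation p = 0.0416, rho = -0.56, permutation p = 0.0415) and Srxn1 (r = -0.55, permutation p = 0.0478, rho = -0.34, permutation p = 0.239) with the heat shock genes. Without mouse 25 and Conv + PBS mouse 1 these were -0.58 and -0.37. On slide 1 and slide 2, r of Srxn1 was -0.97 and -0.07 with the heat shock genes. It was -0.89 and -0.39 with the fasting genes and -0.84 and -0.42 with the clock measure. For Nqo1 the r with these 3 was -0.24 and -0.68, -0.39 and -0.75, and -0.26 and -0.74. Txnrd1 had -0.78 and -0.62 with the clock measure. The clock measure and the fasting genes were themselves closely related across mice (r = 0.94, permutation p = 1e-05, the smallest possible; rho = 0.96, permutation p = 2e-05), with an r of 0.98 without Conv + OM(HFD) mouse 30 and Conv + LM mouse 17, 0.94 on slide 1 and 0.999 on slide 2, so that their relations with Srxn1 and Nqo1 are not separate findings. The clock measure was -2.38, -2.54, -1.68, -1.43, -1.02 and -0.44 in Conv + PBS mice 1 to 6. It was -2.72, -2.13, -1.44, -1.47 and -0.31 in Conv + LM mice 13 to 17, and -2.31, -1.71, -1.60, -0.85 and 0.23 in Conv + OM(HFD) mice 25, 26, 28, 29 and 30. Within each group the clock measure rose with the mouse number, apart from Conv + PBS mice 1 and 2 and Conv + LM mice 15 and 16. The paper states that mice were killed after a 6 h fast and kept on an inverted light cycle. What the mouse numbers stand for, and at what time each liver was taken, is not given in the sources used here. The relations of Srxn1, Txnrd1 and Nqo1 with the clock measure and the fasting genes cannot be told apart from relations with the mouse number or that time. The part of the fasting, clock and heat shock genes in the levels of Srxn1, Txnrd1 and Nqo1 was not tested.

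**Figure D4:**
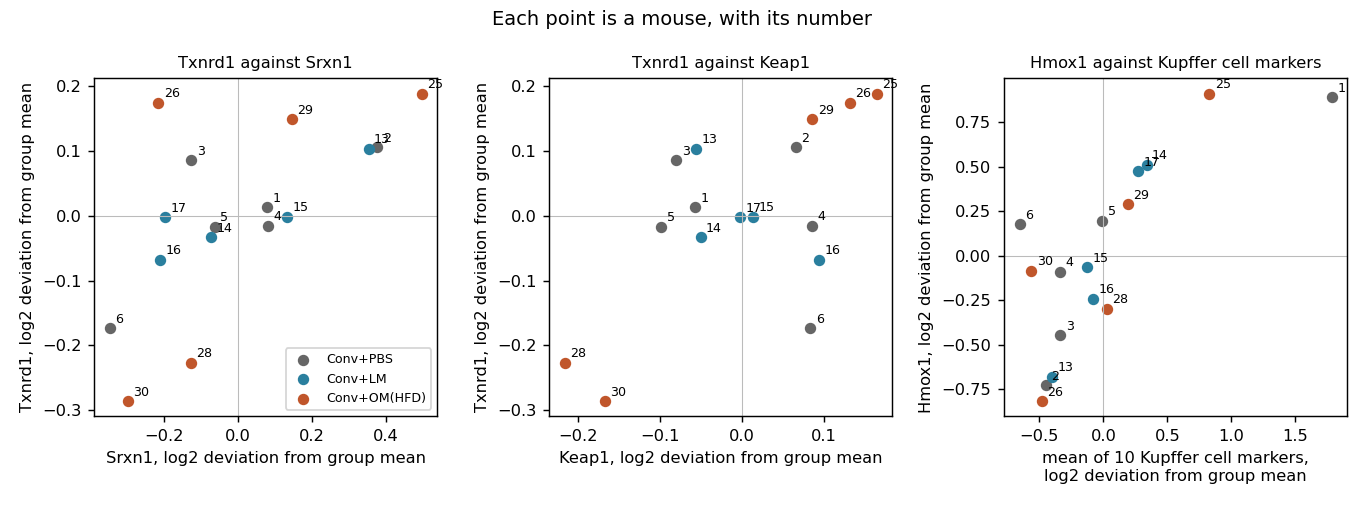
Deviations from the group mean on the log2 scale are plotted for Txnrd1 against Srxn1, Txnrd1 against Keap1, and Hmox1 against the mean of 10 Kupffer cell markers, with 1 numbered point per mouse, coloured by group. Mice 28 and 30 stand apart at the lower left for Keap1 and Txnrd1 (r = 0.61, and -0.39 without them), and Conv + PBS mouse 1 at the upper right for the Kupffer cell markers (r = 0.77).

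The genes most alike in pattern were searched among 17020 genes well above background on all arrays, by r over 16 mice with group means removed, and they are a description. For Hmox1 they were Calhm2 (r = 0.94) and Arhgef2 (0.91). For Srxn1 they were Vangl1 (0.91) and Nme4 (0.91), and for Txnrd1 Xpnpep1 (0.89) and Nlk (0.88). Nfe2l2 was most like DV068753, a transcript without a gene symbol in the array design (0.86), and Tkt (0.80), which encodes transketolase of the pentose phosphate pathway. Nqo1 was most like Ulk1 (0.86), an autophagy kinase, and 1110019B22Rik (0.84). For Gclc they were Jak2 (0.84) and NAP094239-001 (0.82), for Gclm Nt5c3 (0.85) and Sh3bgrl2 (0.83), and for Keap1 Ncstn (0.79) and Ctcf (0.78). None of the 8 genes was among the most alike of another.

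Among the 85 further genes, r was at least 0.5 with 10 for Srxn1, 7 each for Gclm, Hmox1 and Txnrd1, 6 each for Nfe2l2 and Nqo1, 1 for Keap1 and 0 for Gclc. An r of -0.5 or lower was found with 9 of the 85 for Hmox1 (10.6%, beside 6.01% of all genes tested), 8 for Nqo1 (9.41%, beside 12.9%), 6 for Srxn1 (7.06%, beside 10.3%), 4 for Txnrd1 (4.71%, beside 5.42%), 2 for Gclc (2.35%, beside 3.55%), 1 each for Nfe2l2 and Gclm (1.18%, beside 4.68% and 2.62%) and 0 for Keap1 (beside 1.82%). The 6 of Nqo1 were Pir, Ptgr1, Gstm1, Gstm3, Gstm4 and Htatip2, of which 3 are glutathione S-transferases of the mu class. The 6 of Nfe2l2 were Tkt, Gsta2, Gsta4, Gstt1, Gstm6 and Mgst3. Those of Txnrd1 included Pgd and Taldo1 of the pentose phosphate pathway, which are also among the 10 of Srxn1, and Txn1, its own substrate thioredoxin. Those of Hmox1 included Sqstm1, an autophagy adaptor, Cbr3, G6pdx and Slc48a1, a haem transporter. The share of the 85 genes with an r of at least 0.5 was 11.8% for Srxn1, beside 9.11% of all genes tested. It was 8.24% each for Gclm, Hmox1 and Txnrd1, beside 3.35%, 5.77% and 6.62% of all genes. For Nfe2l2 and Nqo1 it was 7.06% each, beside 2.20% and 4.71%, for Keap1 1.18%, beside 2.31%, and for Gclc 0, beside 2.47%. These shares were not tested.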

How the data were processed

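Gene expression was measured in liver RNA of 16 mice on one-colour Agilent arrays, and groups were taken from the sample labels. The authors extracted the scans with Agilent Feature Extraction 10.10.1.1. The deposited intensity values were background-subtracted per array, with no normalization between them. The authors also deposited log2 values, which match the quantile-normalized median spot intensity and were used as an alternative. From 200 ng of RNA per mouse, depth does not apply, and the number of arrays limits the precision.

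Control spots were dropped, values were put on the log2 scale and each array's 75th percentile was subtracted. Probes well above background on at least 5 arrays were kept (30664 probes, 20404 genes), and the probe with the highest mean stood for a gene. Group differences were tested in a joint fit with limma 3.58.1 (lmFit, eBayes; R 4.3.3), with Benjamini-Hochberg adjustment over all genes, and by exact two-sided permutation, whose smallest p is 0.00216 (5 against 6 mice) or 0.00794 (5 against 5). Correlations used deviations from group means, with 100000 two-sided permutations within groups (SciPy 1.17.1 and NumPy 2.4.6 in Python 3.11.15, smallest p 1e-05) and adjustment over 28 pairs, 40 relations with list means, 16 with other probes or 10 marker genes, with the clock and fasting measures as 1 relation of its own. On simulated data, limma recovered 156 of 200 genes changed by 1 on the log2 scale for Conv + OM(HFD) vs. Conv + PBS among 20328 genes, with 8 unchanged genes called. Named genes were the 8 genes with every probe, further pathway genes at an unadjusted p under 0.05, and the 2 most alike genes of each, while the 3 single Kupffer cell markers and Timd4, and the pathway genes given with an r of at least 0.5, were chosen after their values were seen. The 8 genes and all lists were chosen with earlier results of these data known. Alternatives were quantile normalization, normexp (offset 50), the authors' values, other filters, the slide as a block, array weights, the mean of probes, the compared groups only, the methods' t-test and leaving out each mouse.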

Additional observations from a re-analysis of the deposited data

Results flagged for a closer look

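Among the 30 combinations of probe and group examined, 2 held a mouse that lay apart from the rest of its group, where chance flags about 1 in 20 groups. Nfe2l2 was lowest in Conv + OM(HFD) mouse 25, at 2.48 on the log2 scale, with the nearest mouse at 2.77 and the highest at 2.88. The other Txnrd1 probe (A_55_P2740574) was lowest in Conv + PBS mouse 1, at 2.33, with the nearest mouse at 2.96 and the highest at 3.09.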

How the results depend on the processing

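No paired analysis was possible because no mouse number occurs in more than 1 group. The 0 calls over all genes at an adjusted p under 0.05 held under every alternative run. The count of the 8 genes at an unadjusted p under 0.05 with HFD-microbiota against vehicle, 1 with Nfe2l2, was 0 with quantile normalization, without a filter on dim probes, with array weights and with the mean of probes. It ranged from 0 to 1 when each mouse was left out, being 0 without Conv + PBS mouse 1, 2, 3 or 5, Conv + LM mouse 13, or Conv + OM(HFD) mouse 25, 28 or 29. For Conv + OM(HFD) vs. Conv + LM mice the count was 0 to 1, being 1 (Gclm) without mouse 30. The number of pairs with an r of at least 0.5, 3 in the main setting, was 5 with quantile normalization and with the authors' values, 4 with normexp, 2 with the mean of probes (Keap1 and Txnrd1, Nfe2l2 and Srxn1), 3 with the slide as a block (with Keap1 and Srxn1 in place of Nfe2l2 and Nqo1), and 2 to 5 when each mouse was left out, being 5 without Conv + LM mouse 16. Pairs at an adjusted p under 0.05 were 0 to 1 when each mouse was left out. The cause of these shifts was not tested.

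The following alternatives were chosen after seeing the data. Relations with list means at an adjusted p under 0.05, 1 in the main setting, were 4 with quantile normalization, 5 with the authors' values, 2 with the filter set to all 16 arrays, 6 with the mean of probes, 0 with Spearman's rho and 0 to 4 when each mouse was left out, being 4 without Conv + OM(HFD) mouse 29, 2 without mouse 28 and 0 without any of the 5 mice named with Hmox1. The r of Hmox1 with the Kupffer cell markers was 0.73 to 0.84 under these alternatives, and 0.64 without Conv + PBS mouse 1 and Conv + OM(HFD) mouse 25. The 2 mice left out were those whose deviation from the group mean lay farthest from the median of these deviations. With the 2 mice chosen instead by level, as farthest from the median level, r was 0.52 for Srxn1 and Txnrd1, 0.79 for Nfe2l2 and Nqo1, -0.24 for Nfe2l2 and Keap1, -0.57 and -0.66 for Srxn1 and Nqo1 with the fasting genes, and -0.20 and -0.55 with the heat shock genes.

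Of 630 recomputed log2 fold changes of the 8 genes, 43 had the opposite sign, none of them past the threshold. With HFD-microbiota against vehicle these were 0.055 for Nfe2l2 and 0.093 for Txnrd1 with the other probe, 0.011 for Gclc with array weights and 0.030 for Txnrd1 with the mean of probes. For Conv + LM vs. Conv + PBS mice they were 0.21 for Nfe2l2 and -0.047 for Txnrd1 with the other probe, 0.052 for Nfe2l2 and -0.0086 for Txnrd1 with the mean of probes, and 0.0020 and 0.0061 for Gclc with quantile normalization and the authors' values. For Conv + OM(HFD) vs. Conv + LM mice they were 0.0057 and 0.019 for Keap1 with quantile normalization and the slide as a block, 0.0025 for Nqo1 with normexp, 0.028 for Gclc with array weights, -0.0097 for Srxn1 with the slide as a block, and 0.039 and 0.14 for Txnrd1 with the mean of probes and the other probe. When each mouse was left out, log2 fold changes that changed sign ranged, with HFD-microbiota against vehicle, from -0.069 to 0.050 for Gclc, -0.0055 to 0.084 for Gclm, -0.068 to 0.36 for Hmox1, -0.0086 to 0.19 for Srxn1 and -0.079 to 0.039 for Txnrd1. For Conv + LM vs. Conv + PBS mice they ranged from -0.20 to 0.027 for Nqo1, -0.076 to 0.031 for Gclc and -0.0052 to 0.051 for Txnrd1. For Conv + OM(HFD) vs. Conv + LM mice they ranged from -0.044 to 0.051 for Keap1, -0.16 to 0.068 for Nqo1, -0.059 to 0.070 for Gclc, -0.11 to 0.11 for Srxn1 and -0.11 to 0.0098 for Txnrd1.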
